A study of Homo sapiens with 2 samples.

Results

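The proteins of the mitochondrial ribosome were examined in L-428 cells, an established Hodgkin lymphoma cell line, with and without knock-down of PRAME. Members were all probe sets of the array with 1 annotated symbol that begins with MRPL or MRPS followed by a number. This gave 142 of 54675 probe sets and 77 symbols. Of these probe sets, 85 belonged to MRPL symbols (large subunit) and 57 to MRPS symbols (small subunit). The names cover 75 protein-coding genes, 48 of the large and 27 of the small subunit, and 2 non-coding symbols, the antisense transcript MRPL20-AS1 and the pseudogene MRPL45P2.

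The study asked which genes differ when PRAME, a cancer/testis antigen that represses retinoic acid receptor signaling, is suppressed in Hodgkin lymphoma cells. Control cells carried the empty vector pcDNA6.2-GW/EmGFP-miR-neg, and knock-down cells the vector pcDNA6.2-GW/EmGFP-miR-PRAME, which makes an artificial microRNA against PRAME. Both were stable transfectants of the same line under blasticidin selection and carried the EmGFP cassette. Total RNA of each was hybridized to 1 Affymetrix HG_U133PLUS2.0 array. The labels of both samples name L-428, whereas the design text of the series names the line L-540 and an older array of the same maker. With 1 array per condition no test was possible, and every difference below compares 2 arrays of 1 cell line.

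Mitochondria translate the few messenger RNAs of their own genome, which encode subunits of the respiratory chain and the ATP synthase, on ribosomes of their own. These ribosomes have a large subunit, which forms the peptide bond and holds the exit tunnel, and a small subunit, which reads the messenger RNA. Both contain ribosomal RNA from the mitochondrial genome and proteins that are encoded in the nucleus, made in the cytosol and imported, so that the members are transcribed from many separate chromosomal sites. Some are homologues of bacterial ribosomal proteins and others were added during the evolution of mitochondria.

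Sequences are given for the promoters of the 4 protein-coding members whose difference reached 1.5-fold, because one pair of them shares a promoter region. Each run holds the 250 bases before the annotated start, 5′ to 3′ on the strand of the gene, from RefSeq (GRCh38.p14). Capitals mark CCGGAAG, a motif of ETS factors such as GABP, which is known to activate nuclear genes for mitochondrial proteins.
MRPL33 (chr2:27771469-27771718, plus strand): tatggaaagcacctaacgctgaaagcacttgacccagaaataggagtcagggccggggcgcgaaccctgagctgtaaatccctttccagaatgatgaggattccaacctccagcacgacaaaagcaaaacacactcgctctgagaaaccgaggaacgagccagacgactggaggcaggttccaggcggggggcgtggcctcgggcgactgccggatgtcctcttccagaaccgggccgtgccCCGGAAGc
MRPS11 (chr15:88467458-88467707, plus strand): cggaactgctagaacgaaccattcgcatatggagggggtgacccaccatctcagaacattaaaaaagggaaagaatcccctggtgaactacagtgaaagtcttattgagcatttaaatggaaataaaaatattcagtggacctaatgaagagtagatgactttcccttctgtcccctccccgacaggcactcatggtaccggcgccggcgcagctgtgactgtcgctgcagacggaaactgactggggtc
MRPL46 (chr15:88467389-88467638, minus strand): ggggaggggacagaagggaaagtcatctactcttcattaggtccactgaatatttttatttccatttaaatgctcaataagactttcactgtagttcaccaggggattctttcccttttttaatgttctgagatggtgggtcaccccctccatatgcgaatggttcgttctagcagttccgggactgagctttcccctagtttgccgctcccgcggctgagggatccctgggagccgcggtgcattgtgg
MRPS10 (chr6:42217862-42218111, minus strand): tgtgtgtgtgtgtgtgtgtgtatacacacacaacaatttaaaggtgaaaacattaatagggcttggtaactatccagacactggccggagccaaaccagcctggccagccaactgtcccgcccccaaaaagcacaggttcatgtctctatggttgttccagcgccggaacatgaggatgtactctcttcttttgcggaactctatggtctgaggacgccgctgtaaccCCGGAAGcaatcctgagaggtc
MRPS11 and MRPL46 lie head to head on chromosome 15 with starts 320 bases apart, and 181 bases of their runs are the same stretch of DNA read from opposite strands. Across 300-base windows (250 bases before to 50 bases after the start), both strands were searched for 4 motifs of factors known at such promoters. Windows were available for 67 of the 75 protein-coding members, with 83 windows because some genes have several starts. CCGGAAG was found in 38.6% of these windows and in 10.3% of all 35116 windows. The YY1 motif AAGATGGCG was found in 14.5% and 1.75%, the NRF1 motif GCGCANGCG in 18.1% and 7.52%, and the E-box CACGTG in 10.8% and 7.26%. Of the 4 genes shown, MRPL33 and MRPS10 had CCGGAAG, MRPS10 and MRPL46 had AAGATGGCG just after the start and outside the printed run, and MRPS11 had none of the 4 motifs.

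The MAS5 signal of PRAME, the targeted gene, was 2115 on the control array and 1251 on the knock-down array (probe set 204086_at). MAS5 signals are linear intensities. The log2 ratios below are knock-down over control, centered on the median of all probe sets above a signal filter of 97.7, and the ratio of PRAME was -0.80, or 1.74-fold lower. The trimmed mean signal was 499.9 on both arrays and the median signal 91.9 and 109.9. Of 8 markers of Hodgkin cells 7 were above the filter, with log2 ratios from -0.63 (FUT4, 1177 and 782) to 0.25 (IRF4, 4633 and 5703), whereas CCL22 was below it (9.05 and 15.2). TNFRSF8 (CD30) had 1893 and 1667, and the signals of all 8 summed to 37339 and 38917. None of 4 T cell and none of 4 monocyte markers was above the filter, with summed signals of 186 and 123 in control and 238 and 146 in knock-down cells. Of 5 B cell markers 3 were above it, with a highest signal of 178 and 332 (CD79A, log2 ratio 0.85). MS4A1, with 95.9 and 134.7 (0.44), passed the filter through its knock-down signal. The lowest ratio of the 5 was 0.05 (CD22). Whether these marker signals contribute to the results below was not tested.

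Expression of most mitochondrial ribosomal protein genes was nearly equal on both arrays. Of 142 probe sets 126 passed the filter, and each symbol was represented by its passing probe set with the highest signal. This left 76 symbols, since the pseudogene MRPL45P2 had no probe set above the filter. Of these, 71 differed by less than 1.5-fold, and 53 (69.7%) had a log2 ratio within 0.25 of 0, compared with 53.2% of all 11794 genes measured in the same way. The interquartile range of the log2 ratios was 0.23 for the members and 0.46 for all genes. The median was -0.08, with 52 of 76 symbols (68.4%) below 0. For all genes it was -0.01, with 51.0% below 0.

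A single symbol, MRPS10, was at least 1.5-fold lower (1.32% of the members), and 5.42% of all genes were. At least 1.5-fold higher were MRPL33, MRPS11, MRPL46 and MRPL20-AS1 (5.26% of the members), and 7.54% of all genes were. At 2-fold, MRPL33 was higher and no member was lower, with 1.73% of all genes higher and 0.729% lower.

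**Figure D1:**
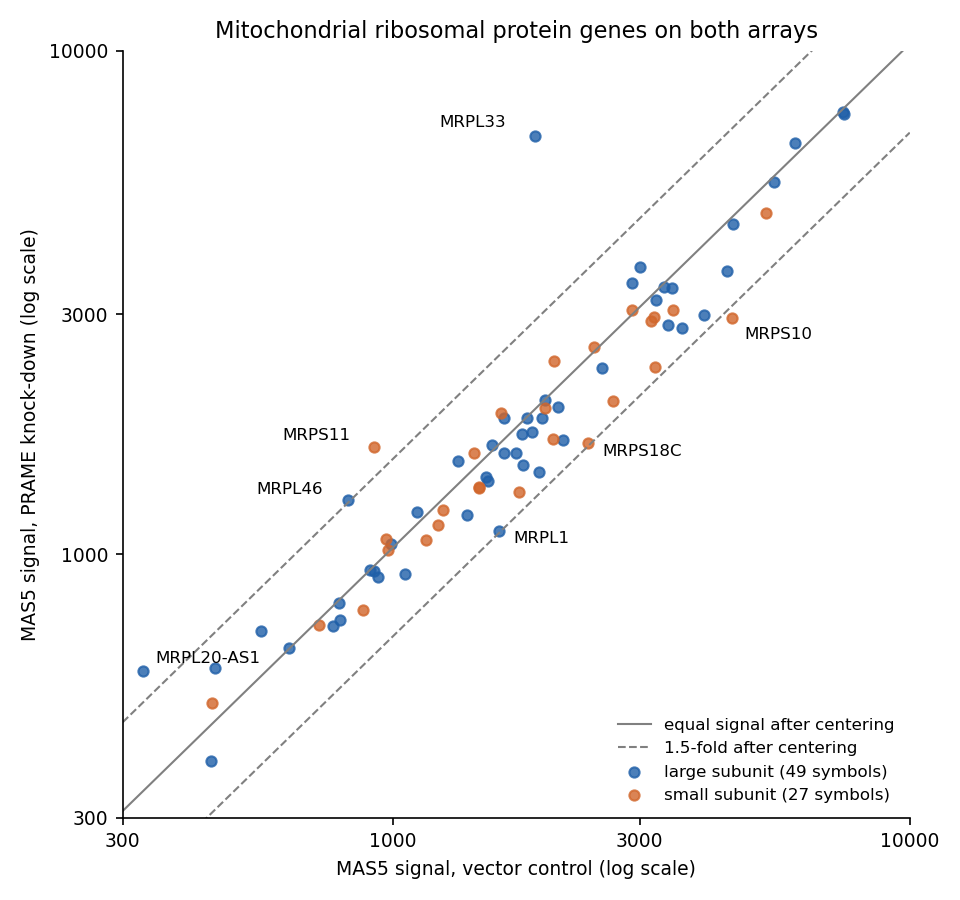
MAS5 signal of each of the 76 measured symbols in knock-down (vertical axis) against control cells (horizontal axis), both on log scales, at the probe set with the highest signal and with 1 array per condition. The solid line is equal signal after centering and the dashed lines are 1.5-fold; 71 symbols lie between the dashed lines, MRPL33, MRPS11, MRPL46 and MRPL20-AS1 above and MRPS10 below them.

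MRPL33, the homologue of bacterial L33 in the large subunit, differed most. Its only probe set, 203781_at, gave 1882 on the control array and 6784 on the knock-down array. This is a log2 ratio of 1.80, or 3.49-fold higher. Among all 11794 genes 9 had a higher ratio. Of these 9 genes, 4 had a control signal below the filter. MRPL33 was the 3rd highest of 5897 genes with a signal of at least 793. As no second probe set measures this gene, the size of its difference rests on 203781_at alone.

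The genes next to MRPL33 on chromosome 2 differed less than MRPL33. RBKS, which encodes ribokinase, had signals of 109 and 161 (log2 ratio 0.52) in one probe set and 121 and 139 (0.16) in the other. BABAM2, a subunit of the BRCA1-A complex, had log2 ratios between 0.01 and 0.27 in 3 probe sets. GPN1 was at 0.12, SLC4A1AP at 0.02 and 0.11, and SUPT7L between -0.26 and 0.16.

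MRPS11 and MRPL46, the pair with the shared promoter region, both had a higher signal after knock-down. MRPS11 is the homologue of bacterial S11 in the small subunit. The signal of its probe set 211595_s_at was 919.8 in control and 1637 in knock-down cells (log2 ratio 0.79, 1.73-fold higher). A second probe set of MRPS11, 215919_s_at, did not show this difference, with signals of 148 and 143 and a log2 ratio of -0.10. MRPL46 is a large subunit protein without a bacterial homologue. Its only probe set, 219244_s_at, had signals of 819.9 and 1282 (log2 ratio 0.60, 1.52-fold higher), which lies just past the threshold. With an offset of 64 before the log2 scale or without the signal filter, which moves the center, MRPL46 was at 0.57 and 0.51 and below 1.5-fold. Of the genes near this pair, only DET1 and AEN were examined. DET1 had signals of 105 and 183 (0.75) in one probe set and a log2 ratio of 0.22 in another that was below the filter. AEN had a log2 ratio of -0.11.

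MRPL20-AS1 is a long non-coding RNA named after its position antisense to MRPL20 and encodes no ribosomal protein. Its probe set 225920_at had signals of 328 and 586 (log2 ratio 0.79). MRPL20 itself, a homologue of bacterial L20, had signals of 4554 and 4527 in 220526_s_at (log2 ratio -0.05). The signal of the antisense transcript was thus higher after knock-down and that of MRPL20 almost the same on both arrays.

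MRPS10, the homologue of bacterial S10, was the lowest member. The signal of 218106_s_at was 4531 in control and 2941 in knock-down cells (log2 ratio -0.67, 1.59-fold lower). The other probe sets of MRPS10 were also lower, with signals of 1805 and 1355 (-0.46) and of 1838 and 1408 (-0.43), and did not reach 1.5-fold. Among the 5897 genes with a signal of at least 793, MRPS10 was the 173rd lowest.

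Both subunits had a median slightly below 0. The median log2 ratio was -0.06 for the 49 symbols of the large subunit (quartiles -0.17 and 0.04) and -0.15 for the 27 of the small subunit (quartiles -0.23 and 0.03). Below 0 were 34 of 49 and 18 of 27. The difference of the medians, large minus small, was 0.09. The interquartile ranges of the subunits overlapped over most of their width, and genes of a subunit are no replicates, so this difference was not tested. In the large subunit 3 symbols (6.12%), among them the non-coding MRPL20-AS1, were at least 1.5-fold higher and 0 lower. In the small subunit 1 (3.70%) was higher and 1 (3.70%) lower. Of all genes, 7.54% were higher and 5.42% lower. Without MRPL33 the median of the large subunit was -0.07. When probe sets ending in _s_at, _x_at and _a_at were left out, the order turned, with -0.09 for the large subunit (26 symbols) and -0.06 for the small subunit (16 symbols).

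**Figure D2:**
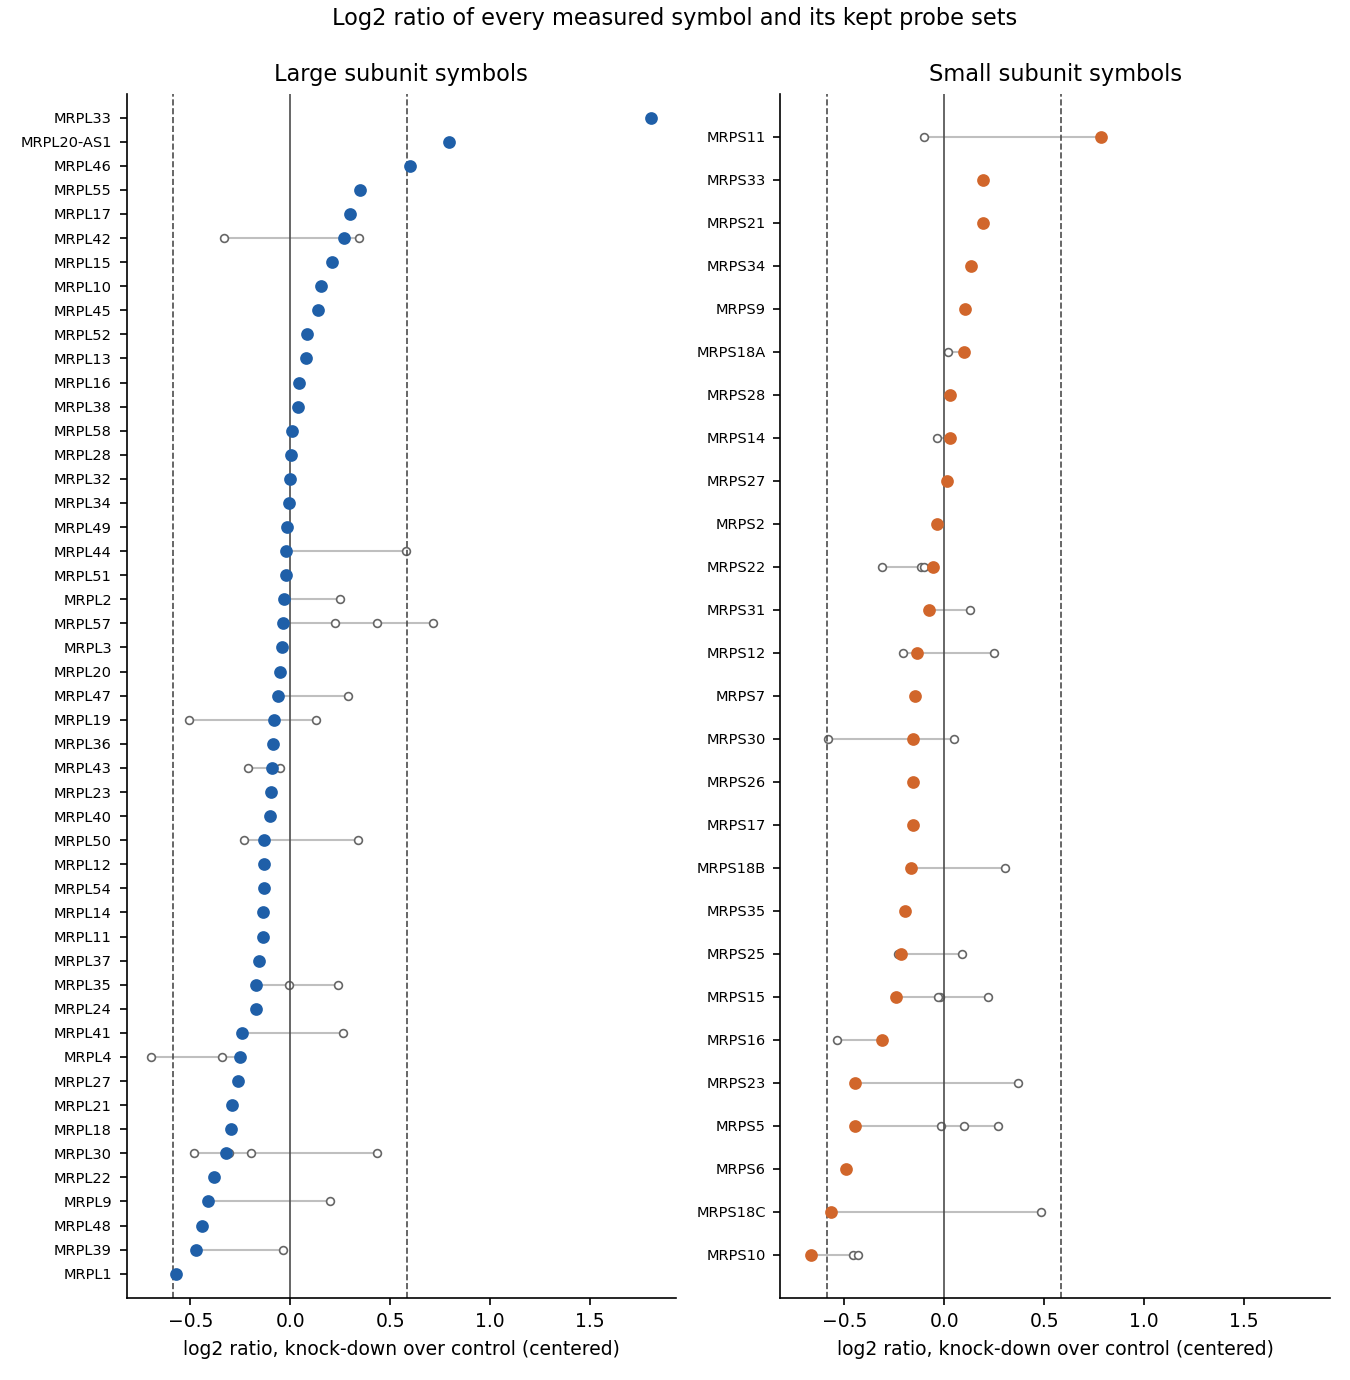
Log2 ratio of knock-down over control for every measured symbol (horizontal axis, centered), ordered within the large subunit (left, 49 symbols) and the small subunit (right, 27 symbols). Filled points are the probe set with the highest signal, open circles the other probe sets above the filter, and dashed lines 1.5-fold; the points run from -0.57 for MRPL1 to 1.80 for MRPL33 and from -0.67 for MRPS10 to 0.79 for MRPS11.

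In the large subunit, MRPL1 had the lowest ratio. MRPL1, the homologue of the protein of the bacterial L1 stalk, had signals of 1604 in control and 1114 in knock-down cells (log2 ratio -0.57, 1.49-fold lower), just under the threshold. It was followed by MRPL39, specific to mitochondria, with 4005 and 2981 (-0.47). MRPL48 had 1917 and 1455 (-0.44). The homologue of bacterial L9, MRPL9, had 3633 and 2821 (-0.41), and MRPL22, whose bacterial homologue L22 lines the exit tunnel, had 2130.2 and 1684 (-0.38). These 5 genes had a lower signal on the knock-down array by these probe sets, but the second probe sets of MRPL39 (-0.04) and MRPL9 (0.20) did not show it. At the high end, after the 3 symbols past 1.5-fold, stood MRPL55 with 453 and 594 (0.35) and MRPL17, the homologue of bacterial L17, with 555 and 705 (0.30).

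In the small subunit, MRPS10 was followed by MRPS18C, with signals of 2388 and 1661 in 228019_s_at (log2 ratio -0.57, 1.48-fold lower). MRPS6 had 3211 and 2359 (-0.49), MRPS5 2662 and 2014 (-0.45) and MRPS23 1753 and 1328 (-0.45). MRPS6 and MRPS5 are homologues of bacterial S6 and S5, and MRPS23 is specific to mitochondria. MRPS6 has a single probe set above the filter, whereas other probe sets of MRPS5 reached 0.27 and that of MRPS23 was at 0.37, on the other side of 0. At the high end, MRPS11 was followed by MRPS33 with 1616 and 1906 (0.19), the homologue of bacterial S21, MRPS21, with 2051 and 2419 (0.19), MRPS34 with 448 and 507 (0.14) and the homologue of bacterial S9, MRPS9, with 1434 and 1590.3 (0.10). These 4 were all within 1.5-fold.

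Bacterial S18 has 3 relatives in human mitochondria, and their probe sets differed in direction. MRPS18C lies in the small subunit at the place of bacterial S18. It was lower in 228019_s_at, as given above, and higher in 220103_s_at, with 90.3 and 130.5 (log2 ratio 0.49). Its probe sets spanned 1.05, and it was the single member with a span over 1. Both the higher ratio and this span rest on 220103_s_at, whose control signal is below the filter of 97.7 and which passed through its knock-down signal. MRPS18B had 3162 and 2907 (-0.17), with 0.30 in the other probe set. MRPS18A, which in spite of its name is part of the large subunit, had 970.3 and 1073 (0.10), with 0.02 in the other probe set. MRPS30, also a large subunit protein by its place, had 3198 and 2963 (-0.16), and its 3 probe sets ran from -0.58 to 0.05. When MRPS18A and MRPS30 were counted with the large subunit, both medians stayed as given. KGD4, formerly MRPS36 and now known as a subunit of the oxoglutarate dehydrogenase complex, is no member under its present symbol and had 2936 and 2452 (-0.30).

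Members with known places in the large subunit were compared by their roles. The stalk that recruits translation factors is built on MRPL10, MRPL11 and MRPL12. MRPL10 had signals of 1335 and 1534 (log2 ratio 0.16), MRPL11 789 and 739.6 (-0.14) and MRPL12 765 and 719.9 (-0.13), so that these 3 genes differed little and not in one direction. Near the site of peptide bond formation lie MRPL2 with 919 and 927 (-0.03), MRPL3 with 7460.2 and 7479 (-0.04) and MRPL4. The signals of MRPL4 were 1056 and 914 (-0.25) in 218105_s_at, and its other probe sets were at -0.34 and, with signals of 211 and 135, at -0.70. MRPL4 was thus lower in all 3 probe sets, past 1.5-fold in the one with the lowest signal. At the exit tunnel, MRPL23 had 937 and 903 (-0.10) and MRPL24 1531 and 1401 (-0.17). MRPL45, which ties the ribosome to the inner membrane, had 1639 and 1862 (0.14). MRPL44, mutated in a hereditary cardiomyopathy, had 787 and 800.1 (-0.02) in one probe set and 279.8 and 431 (0.58, just under 1.5-fold) in the other. MRPL57 had log2 ratios from -0.03 to 0.72 in 4 probe sets.

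In the small subunit, MRPS12, whose bacterial homologue S12 takes part in decoding, had signals of 1221 and 1146 (log2 ratio -0.14). MRPS7, the homologue of bacterial S7, had 1466 and 1364 (-0.15). MRPS16 and MRPS22 are mutated in hereditary defects of oxidative phosphorylation. MRPS16 had 2039 and 1697 (-0.31), with -0.54 in its other probe set, and MRPS22 had 1972 and 1956 (-0.06), with a lowest ratio of -0.31 among 4 probe sets. Both were below 0 in every probe set above the filter, and none of these reached 1.5-fold.

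Probe sets of 1 gene often differed in the sign of their ratio. Of the 76 symbols 47 had 1 probe set above the filter and 29 had several. Among these 29, all probe sets were below 0 in 6 symbols, all above 0 in 1, and on both sides of 0 in 22. No symbol with several probe sets had all of them at 1.5-fold or more. These counts were not made for all genes, so they cannot be read as particular to the members. The pooled SD between probe sets was 0.31 for the members and 0.33 for all 5840 genes with several probe sets. When each gene was given the median of its probe sets, the medians of the subunits were -0.02 (large) and -0.03 (small). No member was then 1.5-fold lower, and 4.49% of all genes were, with MRPS10 at -0.46 and MRPS11 at 0.34.

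Members listed as homologues of bacterial proteins and the other protein-coding members were also set side by side. The 30 genes listed as bacterial homologues in the large subunit had a median log2 ratio of -0.08, and the 18 other protein-coding genes -0.03. In the small subunit, 14 of 15 listed homologues were measured by a probe set with 1 symbol and had a median of -0.15, with -0.07 for the 13 others. MRPL55, which has no bacterial homologue, was in the first list, and MRPS28, a homologue of bacterial S1, was missing from it. With both moved, the medians were -0.09 and -0.02 in the large and -0.15 and -0.11 in the small subunit. In each subunit the listed homologues thus had the lower median under both versions of the list, with no test of this order. MRPS18A and MRPS18B, relatives of bacterial S18, were counted with the other small subunit genes in both versions.

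The log2 ratio also changed with the signal over all genes, and the members lay in the upper range of signals. In 8 bins of equal size by mean signal, the median of all genes was 0.26 in the lowest bin, 0.14 in the second, and between -0.09 and 0.01 in the other 6. No member was in the lowest 2 bins, and 67 of 76 were in the 4 highest. In these 4 bins the median was -0.09 for the members and -0.06 for all 5897 genes, with 71.6% and 59.7% below 0. Within 0.25 of 0 were 70.1% of these members and 61.3% of these genes. The interquartile range was 0.25 for these members and 0.37 for these genes, closer than over the whole range of signals. In the same bins 4.75% of all genes were at least 1.5-fold lower and 1.87% higher, and 1 (1.49%) and 3 (4.48%) of the members. After subtraction of this trend (loess) the medians were -0.01 for the large and -0.07 for the small subunit, and after quantile normalization 0.01 and -0.06. The sign of the median of the large subunit therefore depended on the scaling, while MRPL33 was at 1.88 in both and MRPS10 at -0.60.

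**Figure D3:**
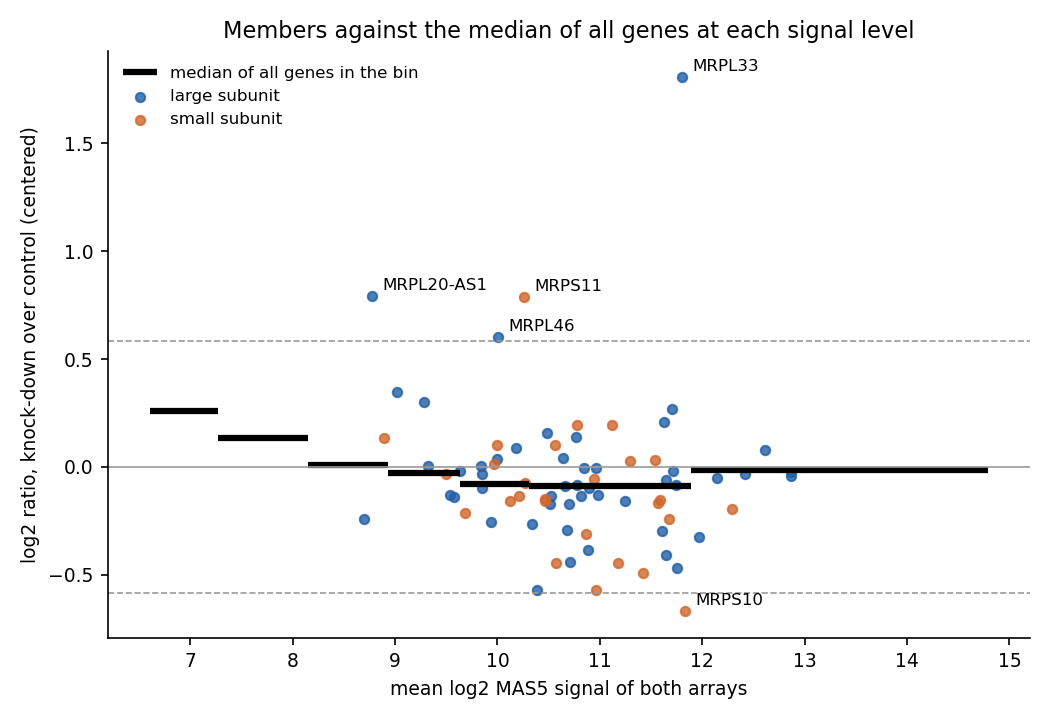
Log2 ratio of each member (vertical axis, centered) against its mean log2 MAS5 signal on both arrays (horizontal axis), with large subunit symbols in blue and small subunit symbols in orange. Black bars are the medians of all genes in 8 bins of equal size, from 0.26 in the lowest to -0.01 in the highest bin, and dashed lines are 1.5-fold; most members lie close to the bars, and MRPL33 is far above them.

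The members are spread over 21 chromosomes. On chromosome 1, with 8 members, their median was -0.11 and that of all genes 0.08, and on chromosome 17, also with 8 members, -0.06 and -0.03. On chromosome 15 the measured members were MRPS11 and MRPL46 (0.79 and 0.60), where the median of all genes was -0.0007. MRPL1 and MRPS18C are the measured members on chromosome 4 (-0.57 each), where the median of all genes was -0.10. On chromosome 21 these were MRPS6 and MRPL39 (-0.49 and -0.47), with a median of all genes of -0.17. All 3 members on chromosome 8 were above 0, with ratios from 0.03 to 0.21, where the median of all genes was -0.004.

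The other genes of mitochondrial translation were described list by list. Of the ribosomal subunits with other names, 4 of 5 were measured and none differed by 1.5-fold (5.42% of all genes were lower and 7.54% higher). DAP3, a small subunit protein that binds GTP, had 2347 and 3001 (log2 ratio 0.31), but its 3 probe sets ran from -0.54 to 0.31. GADD45GIP1, a large subunit protein, had 345 and 317 (-0.17), with 0.22 in its other probe set. CHCHD1, a small subunit protein, had 2351 and 2600.3 (0.10). Of 24 genes of ribosome assembly 23 were measured, with a median of -0.09. Of these, 1 was lower (4.35%, and 5.42% of all genes) and 0 higher (7.54% of all genes). The lower gene was MRM1, a methyltransferase of the mitochondrial ribosomal RNA, with 228 and 129.8 (-0.86). The methyltransferases MRM3 (-0.46) and TFB1M (-0.45) did not reach 1.5-fold.

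Of 15 translation factors 13 were measured, with a median of -0.01, 0 lower and 1 higher (7.69%, and 7.54% of all genes). The higher gene was MTRFR, which rescues stalled mitochondrial ribosomes, with 1192.5 and 2118 (0.78). TACO1, an activator of the translation of cytochrome c oxidase subunit I, was at -0.53 and the initiation factor MTIF3 at -0.52. Of 17 mitochondrial tRNA synthetases 15 were measured, with a median of -0.17, 2 lower (13.3%, and 5.42% of all genes) and 0 higher. Within 0.25 of 0 were 6 of these 15 (40.0%, and 53.2% of all genes). The 2 lower genes were EARS2, for glutamate, with 413 and 247 (-0.79) and HARS2, for histidine, with 862 and 539 (-0.72). Another probe set of EARS2 was at 0.03, so that its probe sets did not share the difference.

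The ribosomal proteins of the cytosol had a different median from the mitochondrial ones, but this depended on the scaling and on the probe sets used. Of 87 genes 59 were measured, with 0 lower (5.42% of all genes) and 1 higher (1.69%, and 7.54% of all genes). Their median log2 ratio was 0.19, with 54 above 0. After quantile normalization the median was 0.02, with 35 above 0, and with the loess trend removed 0.12, with 49 above 0. The higher gene was RPL14 (0.81), whose probe sets ran from -0.71 to 0.81. Without probe sets ending in _s_at, _x_at and _a_at, 29 genes remained, with a median of 0.11 and 20 above 0. Of these 29 genes, 3 were then at least 1.5-fold lower, and 5.92% of all genes were.

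**Figure D4:**
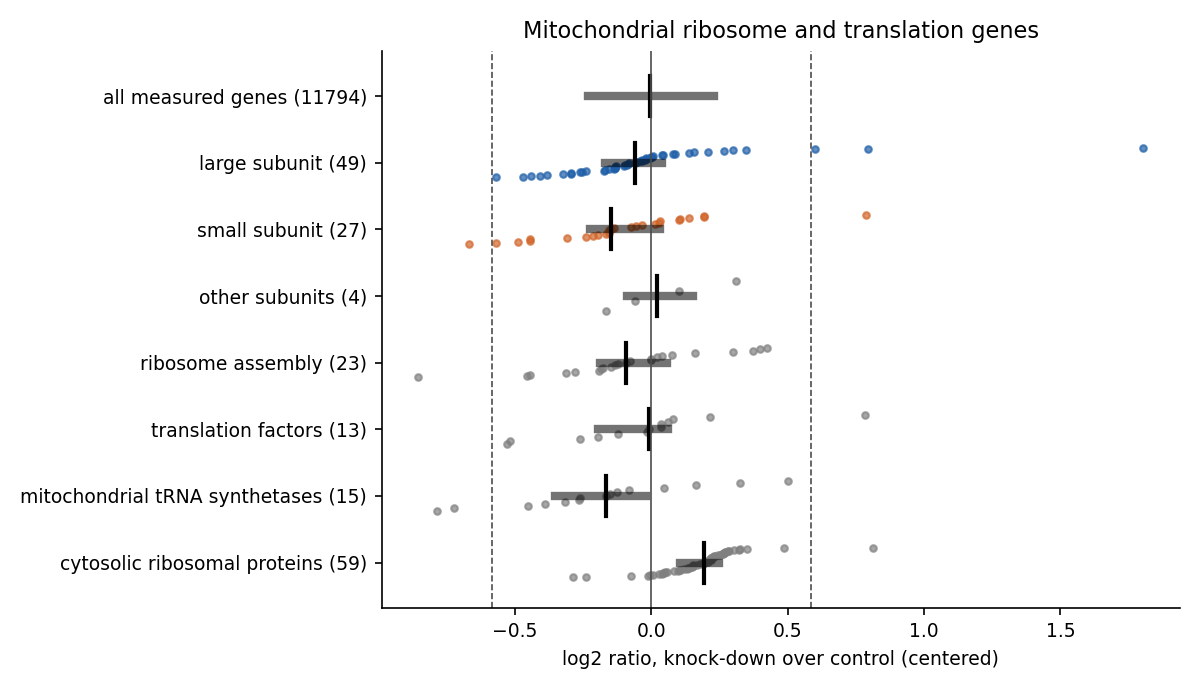
Log2 ratio of knock-down over control (horizontal axis, centered) for the genes of each list, 1 point per gene, with the number measured in parentheses. Black ticks are medians, grey bars the interquartile ranges and dashed lines 1.5-fold; medians are -0.06 for the large and -0.15 for the small subunit, -0.17 for mitochondrial tRNA synthetases and 0.19 for cytosolic ribosomal proteins.

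**Figure D5:**
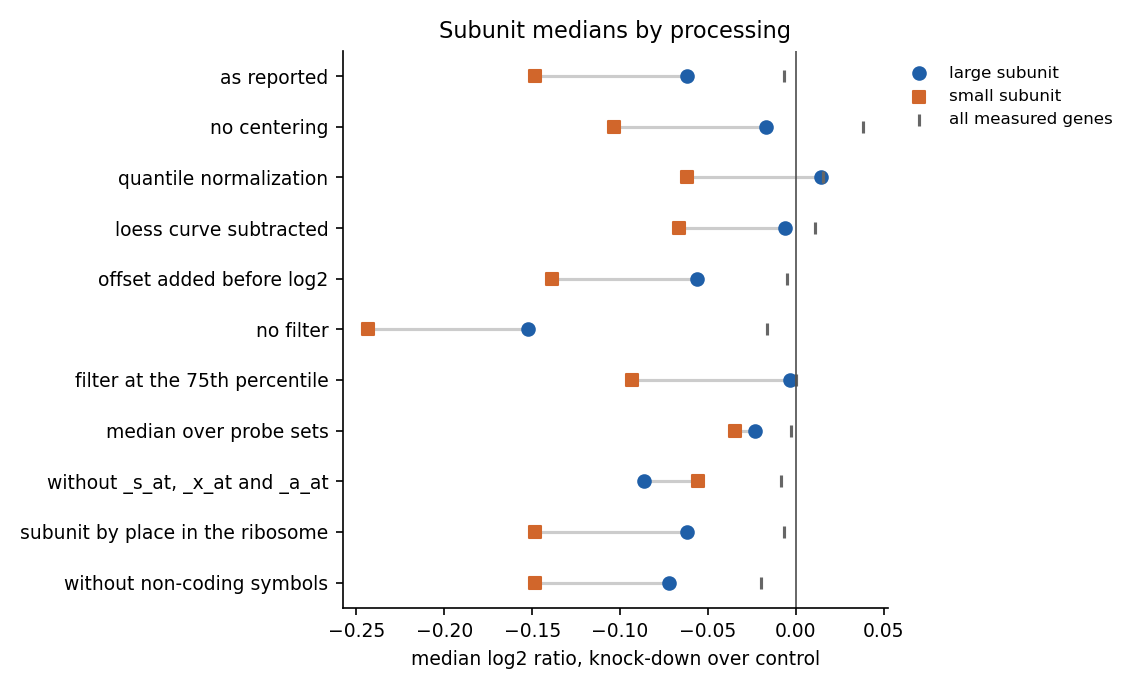
Median log2 ratio (horizontal axis) of the large subunit (blue circles), the small subunit (orange squares) and all measured genes (grey ticks) as reported and under 10 other ways of processing (rows). The large subunit is above the small subunit except without _s_at, _x_at and _a_at probe sets, and its median runs from -0.15 without a filter to 0.01 after quantile normalization.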

How the data were processed

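Gene expression was measured on 1 Affymetrix HG_U133PLUS2.0 array for each of the 2 conditions. The authors used Affymetrix Expression Console 1.1, and the deposited values are MAS5 signal intensities on a linear scale, scaled to one level on both arrays. RMA values and detection calls were not analysed here. Hybridization dates were not given in the sources read. Control probe sets (62) were not used. The deposited intensities were converted to log2 with no offset. The filter kept the 27307 probe sets whose mean log2 signal reached the median, and 0.045 was subtracted from all log2 ratios to center them. In the platform annotation 41097 probe sets had 1 symbol, 1801 had several and 11777 had none. Only those with 1 symbol were used, and RefSeq (GRCh38.p14) listed 41043 of them. Each gene was represented by its brightest kept probe set. The annotation names no genome build, so coordinates are given only for promoter sequences. MAS5 subtracts background, so low signals can give large ratios.

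No test was made, since the number of arrays limits the precision, and 1.5-fold and 2-fold served as thresholds. Members named by rule are those past 1.5-fold, the 5 lowest and 5 highest of each subunit, those whose probe sets span over 1, the S18 relatives, MRPS30, and at most 3 genes of each other list. Members described by their role or chromosome, MRPL20, MRPS28 and the neighbours of MRPL33, MRPS11 and MRPL46 were named after their values were seen. The members and lists were chosen with earlier results of these data known. As alternatives, the ratios were not centered, quantile normalized, freed of a loess trend (span 0.4) or computed with an offset of 64. Further alternatives were to filter nothing or at the 75th percentile, to give each gene the median of its probe sets, to leave out probe sets ending in _s_at, _x_at or _a_at, to assign MRPS18A and MRPS30 to the large subunit, and to leave out non-coding symbols. The scripts were tested on simulated data. They used matplotlib 3.10.9, statsmodels 0.14.6, pandas 2.3.3 and numpy 2.4.6 under Python 3.11.15.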

Additional observations from a re-analysis of the deposited data

How the results depend on the processing

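Ratios of 2 arrays carry no estimate of the spread between cultures, and signals near the filter have the least certain ratios. No paired analysis was possible because each condition has 1 array. The median of the large subunit changed sign after quantile normalization (0.014). The median of the small subunit moved to -0.035 with the median over probe sets, and was below 0 under all 10 alternatives. The difference of the medians, large minus small, turned to -0.031 without probe sets ending in _s_at, _x_at and _a_at, and was between 0.01 and 0.09 under the other 9 alternatives. The number of members at least 1.5-fold lower was 3 of 77 without a filter, where 11.8% of all genes were lower. It was 0 of 76 with the median over probe sets, where 4.49% of all genes were lower. The number at least 1.5-fold higher was 2 without the probe sets of these endings, where 42 symbols remained and 8.05% of all genes were higher. MRPS11 and MRPL46 have only probe sets of these endings and were not measured in that setting. Without a filter, which moves the center, the lower members were MRPS10 (-0.76), MRPL1 (-0.67) and MRPS18C (-0.66). With the median over probe sets MRPS10 was at -0.46. The cause of the remaining changes was not tested. Of 218 values of the 23 named members under the alternatives, 212 moved by less than the pooled SD between probe sets of 1 gene and 6 moved by more. The sign changed in 3 of the 218, for MRPS5 with the median over probe sets (0.04) and without the probe sets of these endings (0.10), and for MRPS18B with the median over probe sets (0.07), which moved by less than this SD. Among all genes, the numbers at least 1.5-fold lower and higher were 2331 and 3480 without a filter (19775 genes), 273 and 254 with the filter at the 75th percentile (7392 genes), and 468 and 490 with the offset of 64.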

Other observations

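Below the signal filter lay 16 probe sets of 13 symbols, with signals between 1.37 and 142.8. After centering, 13 of the 16 were higher in the knock-down cells, and their log2 ratios ran from -1.74 to 2.61. The same share was not computed for all probe sets below the filter, so 13 of 16 cannot be read as particular to the members. The median signal of all probe sets was 91.9 on the control array and 109.9 on the knock-down array. The highest was that of the pseudogene MRPL45P2, with signals of 1.37 and 8.62 (237182_at), and the lowest that of a probe set of MRPL20 with 51.5 and 15.9 (220527_at).

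Probe sets annotated with several symbols were not members. The probe set of MRPS24, the homologue of bacterial S3, is annotated together with the read-through transcript URGCP-MRPS24 (224948_at) and had signals of 2865 and 3405 (log2 ratio 0.20). The probe set of MRPL53 and CCDC142 (225523_at) had 3273 and 2717 (-0.31). That of MRPL51 and SPTLC1 (224334_s_at) was at -0.12, and that of the pseudogene MRPS31P5 and THSD1 (219477_s_at) at 0.34.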
